A study of Mus musculus with 16 samples.

Results

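The 10 genes described here are subunits of the transcription factor NF-kB and genes of its feedback and response: Nfkb1, Nfkb2, Relb, Bcl3, Nfkbia, Nfkbiz, Tnfaip3, Icam1, Ccrl2 and Acod1. They were chosen by symbol, Acod1 also under its older symbol Irg1, and are 10 of 18669 genes with a symbol that were tested. All 10 were well above background on all 16 arrays, and no spot was saturated. They were read in CD11b+ cells, the myeloid cells that carry the integrin Mac-1, isolated from spleen or bone marrow of mice labelled male. The mice were labelled STAT4-/-, STAT6-/-, HDC-/- or WT, and each genotype received either a control diet or, for 3 months, a high-fat diet meant to model atherosclerosis. STAT4 and STAT6 are cytokine-activated transcription factors and HDC is the enzyme that makes histamine. The sources used here do not give the age, background strain or alleles of the mice. Each of the 16 combinations of 4 genotypes, 2 tissues and 2 diets was 1 array of RNA pooled from 5 mice, and no combination was measured again. The error of every test therefore comes from the differences between genotypes and diets that the model leaves out, and not from repeat pools.

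NF-kB is a family of dimers held in the cytoplasm by IkB proteins until a kinase complex marks the IkB for destruction. In the canonical route, set off by Toll-like receptors, TNF or interleukin-1, dimers with p50, the product of Nfkb1, enter the nucleus within minutes and switch on their own inhibitors, Nfkbia and Tnfaip3, which makes the response short. The noncanonical route, used by CD40, BAFF and lymphotoxin receptors, depends on processing of the Nfkb2 product and on its partner RelB. In neutrophils and monocytes the pathway drives adhesion molecules, chemokines and the immune metabolite itaconate, which Acod1 makes.

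The sequence before the transcription start is shown for the members with the kappaB consensus: the subunit gene Nfkb2, and Nfkbia, Tnfaip3 and Ccrl2. The last 3 varied together over the arrays, but Acod1, which varied with them, had no match. Nfkbiz, which also varied with them, was not searched. The 250 bases before each start were taken from RefSeq (build GRCm38.p6), whose table matched 7 of the 10 members by symbol (Nfkb2, Bcl3, Nfkbia, Tnfaip3, Icam1, Ccrl2 and Acod1), and both strands were searched for the kappaB consensus of 10 letters. It was found for 4 of those 7 members and in 7.25% of all 32851 windows of the table, or for 8.23% of 27025 symbols at any start. A match is a likeness of letters only. Matches are in capitals, and the sequences run 5′ to 3′ on the strand of the gene. The Nfkb2 window (chr19:46304487-46304736, plus strand) holds 3 matches, the first 2 of which overlap, and windows of other Nfkb2 starts hold 1 each. The Nfkbia window (chr12:55492648-55492897, minus strand) and the Ccrl2 window (chr9:111057519-111057768, minus strand) hold 1 each, and the Tnfaip3 window (chr10:19015411-19015660, minus strand) holds 2. These letters were not in the windows of Bcl3, Icam1 and Acod1, nor in those of the other Tnfaip3 and Ccrl2 starts. Of the 12 windows of members, 6 held a match.
Nfkb2: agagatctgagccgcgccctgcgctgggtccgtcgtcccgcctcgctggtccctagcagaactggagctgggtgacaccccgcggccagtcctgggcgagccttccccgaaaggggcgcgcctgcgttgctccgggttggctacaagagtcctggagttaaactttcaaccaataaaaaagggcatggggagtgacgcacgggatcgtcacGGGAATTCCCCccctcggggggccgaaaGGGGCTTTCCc
Nfkbia: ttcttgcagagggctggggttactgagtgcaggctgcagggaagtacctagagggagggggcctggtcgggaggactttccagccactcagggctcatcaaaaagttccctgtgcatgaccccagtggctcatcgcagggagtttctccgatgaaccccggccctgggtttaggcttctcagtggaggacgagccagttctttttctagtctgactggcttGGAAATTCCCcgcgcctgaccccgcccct
Tnfaip3: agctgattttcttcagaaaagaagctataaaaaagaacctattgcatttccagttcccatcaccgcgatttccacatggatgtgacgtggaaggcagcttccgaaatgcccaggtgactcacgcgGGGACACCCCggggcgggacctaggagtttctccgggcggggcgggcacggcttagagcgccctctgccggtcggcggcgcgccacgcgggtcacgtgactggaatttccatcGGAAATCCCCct
Ccrl2: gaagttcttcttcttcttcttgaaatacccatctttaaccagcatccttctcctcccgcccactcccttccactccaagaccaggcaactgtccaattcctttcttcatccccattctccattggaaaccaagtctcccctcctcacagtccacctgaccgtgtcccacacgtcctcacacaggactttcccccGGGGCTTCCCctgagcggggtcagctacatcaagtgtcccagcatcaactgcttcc

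Levels below are log2 signals over the 75th percentile of the same array, so 1 unit is a doubling. A level of one gene cannot be set against that of another, since probes differ in brightness. Per array, 59.9% to 85.3% of probes were well above background, and the 4 STAT6-/- and HDC-/- marrow arrays, which share 1 scan time, were lowest (59.9% to 68.7%). Hdc was at 0.94 to 1.87 on the 4 HDC-/- arrays, against 4.02 to 5.75 on 11 of the other arrays, the spot being marked on 1. Stat6 was at 2.51 to 2.99 on the STAT6-/- arrays and at 2.30 to 4.10 on the others. Stat4 was at 0.37 to 3.46 on the arrays labelled STAT4-/-, against -0.93 to 1.30 on the other 12, which goes against that label. They are therefore called arrays labelled STAT4-/- throughout. Among them Stat4 was at 0.52 in spleen and 0.37 in marrow on control diet, and at 3.46 and 2.71 on high-fat diet. Stat6 was at 2.54 and 2.30 on their control diet, and at 3.91 and 4.08 on high-fat diet. Whether the arrays of both diets under this label hold the same genotype was not tested. The sources used here do not say whether these probes lie in the deleted part of a gene. The control-diet arrays labelled STAT4-/- and HDC-/- had low Y-linked signal (mean of 3 genes -8.42 to -5.61, against -0.65 to 0.33 on the other 12), which goes against the label male. The high-fat arrays of these genotypes did not. Within each of them, diet cannot be told apart from that difference. The STAT4-/- labelled spleen array on high-fat diet and the HDC-/- marrow array on control diet correlated more with the other tissue than with their own. Arrays that share a scan time hold 1 tissue and either WT and STAT4-/- labelled samples or STAT6-/- and HDC-/- samples. Tissue, and STAT6-/- or HDC-/- against WT, cannot be told apart from scan.

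**Figure D1:**
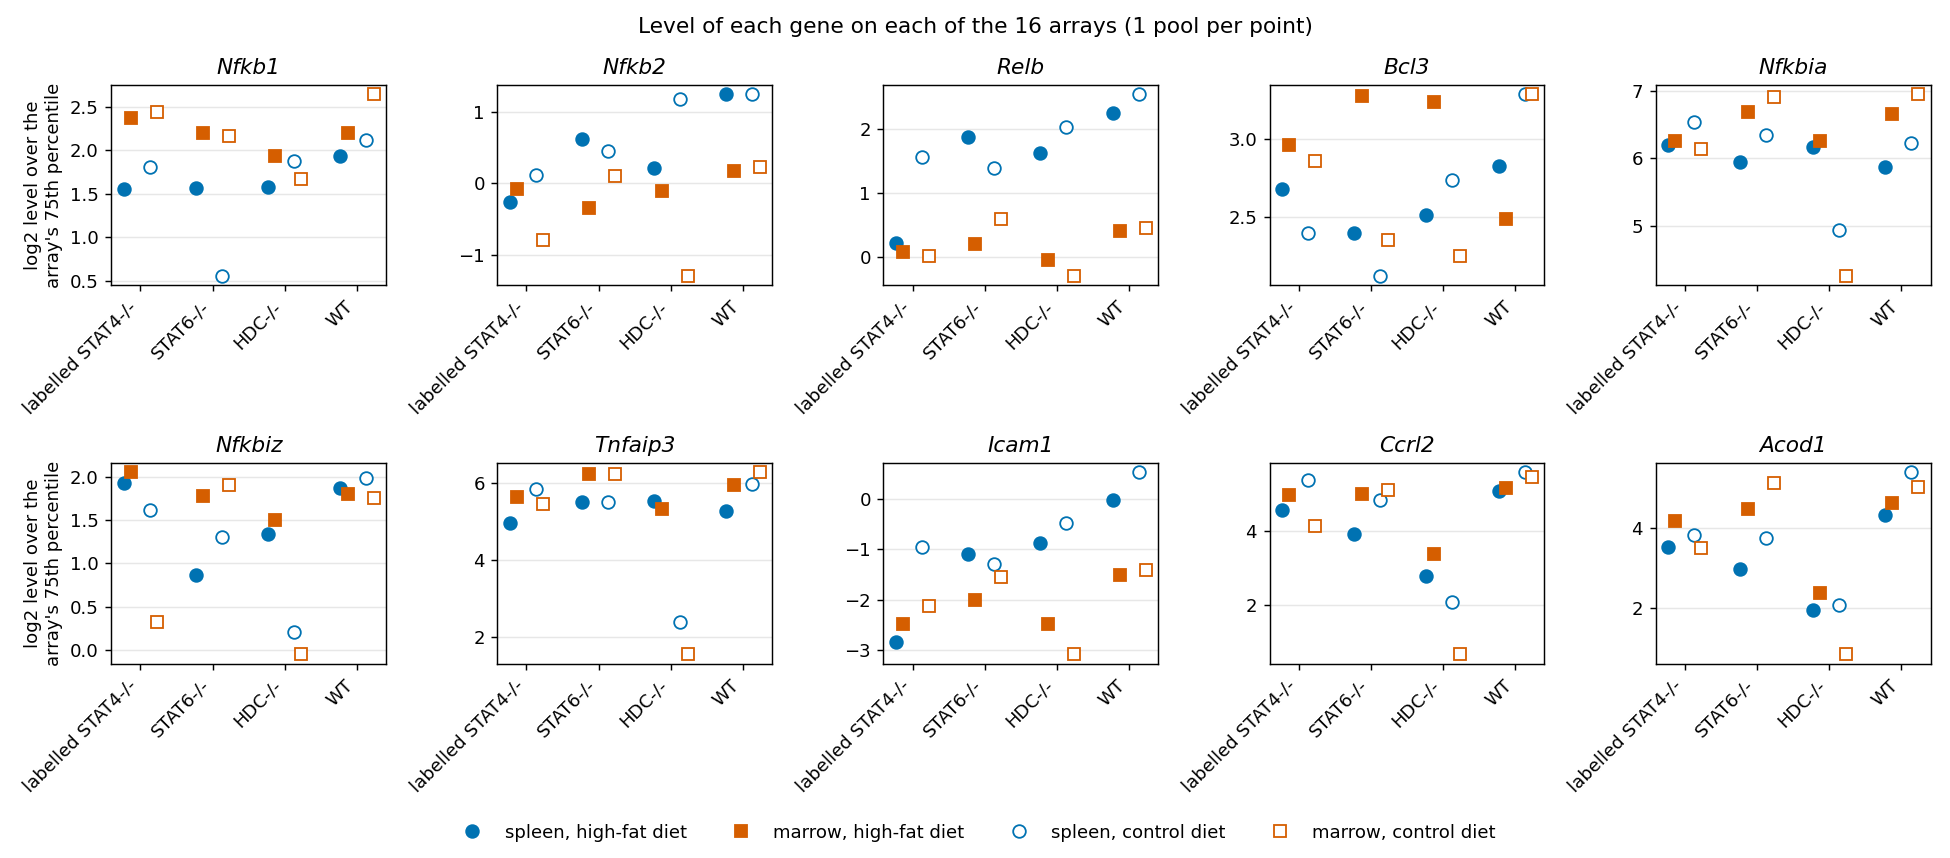
Level of each of the 10 genes on each array, as log2 signal over the 75th percentile of the array, by genotype (filled marks: high-fat diet, open marks: control diet, circles: spleen, squares: marrow). Relb and Icam1 lie higher in spleen within each genotype and diet, except Icam1 in cells labelled STAT4-/- on high-fat diet, and the open HDC-/- marks lie at the bottom of the Nfkbia, Tnfaip3 and Nfkbiz panels.

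The first question is how spleen and marrow CD11b+ cells differ in these genes. Relb and Nfkb2, the subunits of the noncanonical route, and Icam1, the adhesion molecule that binds leukocyte integrins, were higher in spleen. Nfkb1 was lower in spleen by a margin that just passed the threshold. The IkB family genes Nfkbia, Bcl3 and Nfkbiz, the deubiquitinase gene Tnfaip3, and Ccrl2 and Acod1 did not pass. Of the 10 members, 3 were higher and 1 lower at an adjusted p under 0.05 (limma, Benjamini-Hochberg over all 28781 features), where 31.7% of all features were called, 15.1% higher and 16.6% lower. The median change was -0.10 over the members and -0.05 over all features. The share of members called in either direction is near that of features in general. Whether their split by direction differs from that of features was not tested.

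Relb ran from 0.22 through a median of 1.76 to 2.55 on the 8 spleen arrays, against -0.30, 0.14 and 0.60 on the 8 marrow arrays. Spleen was higher in 8 of 8 pairs matched for genotype and diet, and the groups overlapped only through the STAT4-/- labelled high-fat spleen array. The fitted change was 1.52 (SE 0.21, adjusted p = 0.00112), a 2.86-fold higher signal, and a second, dimmer Relb probe gave 1.63. Relb was called under all 13 alternatives and with any 1 of the 16 arrays left out.

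Icam1 was at -2.85, -0.92 and 0.53 (lowest, median and highest) in spleen, against -3.09, -2.06 and -1.42 in marrow. Spleen was higher in 7 of 8 pairs, the exception being the labelled STAT4-/- high-fat pair. The change was 1.21 (SE 0.24, adjusted p = 0.0056), a 2.31-fold higher signal in spleen, and it was lost (0.87, adjusted p = 0.0763) without the 4 arrays of low Y-linked signal. With normexp background correction the change was 0.66 (adjusted p = 0.0455), which is smaller by more than 1.5 times.

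Nfkb2, whose product is processed from p100 to p52, was at -0.26, 0.53 and 1.25 in spleen and at -1.30, -0.10 and 0.23 in marrow, higher in 7 of 8 pairs. The change of 0.87 (SE 0.23, adjusted p = 0.0164) was lost without the STAT4-/- labelled marrow control array (0.81, adjusted p = 0.0518). Without the 2 HDC-/- control-diet arrays it was 0.62 (adjusted p = 0.0677), and without the 4 arrays of low Y-linked signal it was 0.38 (adjusted p = 0.321). The ranges of spleen and marrow overlapped.

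Nfkb1, which encodes p105 and its product p50, was at 0.55, 1.70 and 2.12 in spleen and at 1.67, 2.20 and 2.65 in marrow, lower in spleen in 7 of 8 pairs. The change of -0.58 (SE 0.20, adjusted p = 0.0497) was called with only 2 of the 16 arrays left out in turn (adjusted p 0.0213 to 0.135), those being STAT6-/- spleen on high-fat diet and HDC-/- marrow on control diet. A second, dimmer Nfkb1 probe gave -0.12 and correlated with the first at r = 0.53 over the 16 arrays. The probes of this gene disagreed, quantile normalization (-0.39, adjusted p = 0.148) ended the call, and Nfkb1 was called under 4 of 13 alternatives.

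The canonical inhibitor and feedback genes were not called between tissues. Nfkbia, which encodes IkB-alpha, averaged 6.02 ± 0.49 in spleen and 6.26 ± 0.87 in marrow (SD, n = 8 each). Tnfaip3, which encodes A20, averaged 5.12 ± 1.14 in spleen and 5.33 ± 1.57 in marrow. Both genes were lowest on the HDC-/- control-diet array of each tissue. Nfkbiz, whose product IkB-zeta works in the nucleus as a coactivator, differed by 0.01 (SE 0.27, adjusted p = 0.979). Bcl3, another nuclear IkB, which binds p50 and p52 dimers, differed by -0.22 (SE 0.23, adjusted p = 0.49). Ccrl2, an atypical receptor that binds chemerin, differed by 0.05 (SE 0.34, adjusted p = 0.922), and Acod1 by -0.29 (SE 0.26, adjusted p = 0.414).

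Markers of other cells moved with tissue. The mean level of 8 B cell markers was -0.76, 1.88 and 2.46 on the spleen arrays (lowest, median and highest), against -2.62, -1.82 and -0.18 in marrow. That of 8 dendritic cell markers was -2.06, -0.29 and 0.39 in spleen, against -3.22, -2.76 and -2.01 in marrow. T cell markers had medians of 0.82 in spleen and -3.26 in marrow. The 9 neutrophil markers measured had medians of 5.11 in spleen and 5.87 in marrow. The STAT4-/- labelled high-fat spleen array, lowest of the spleen arrays in Relb and Icam1, also had the lowest B cell value of spleen. Fewer cells of a type and less RNA per cell cannot be told apart in such samples, and the part of these cells in the Relb, Nfkb2 and Icam1 differences was not tested.

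Around the members, the other genes of the pathway moved both ways between tissues, where 31.7% of all features were called. Of 18 receptors upstream of NF-kB, 3 were higher and 4 lower in spleen, among them Cd40 (3.69, SE 0.52, adjusted p = 0.00117) and the BAFF receptor gene Tnfrsf13c (3.04, SE 0.58, adjusted p = 0.00464), both of which signal to the noncanonical route. Tlr9 (-0.94), Tlr2 (-0.88) and Ltbr (-0.77) were lower in spleen, and Ltbr, a lymphotoxin receptor gene, also signals to the noncanonical route. Of 33 kinases and adaptors, 5 were higher and 5 lower, with Traf1 (3.70), a TRAF family adaptor, higher and Tab3 (-1.18) and Ripk1 (-0.71) lower. Cd40 and Tnfrsf13c are also B cell genes. Of 41 other target genes, 9 were higher and 5 lower, with Ccr7 (4.12) and Cd83 (4.10), both dendritic cell maturation genes, at the top and Bcl2l1 (-0.86) and Clec4e (-0.86) below 0. Of the 17 other subunits and inhibitors, 1 was higher (Tnip2, 0.51) and 3 were lower, among them Rnf11 (-0.80). Of 24 immediate early genes, 5 were higher and 1 lower, with Myc (2.64) and Dusp2 (0.87) higher and Fosl2 (-1.31) lower. All these calls are by limma with the same adjustment. Without the 4 arrays of low Y-linked signal the features called over the whole array numbered 3710, against 9124 with all arrays, and fewer list genes were called: 2 receptors higher and 0 lower, 3 kinases and adaptors higher and 1 lower, 6 targets higher and 0 lower, 1 immediate early gene higher and 2 lower, and of the other subunits and inhibitors 0 higher and 1 lower.

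**Figure D2:**
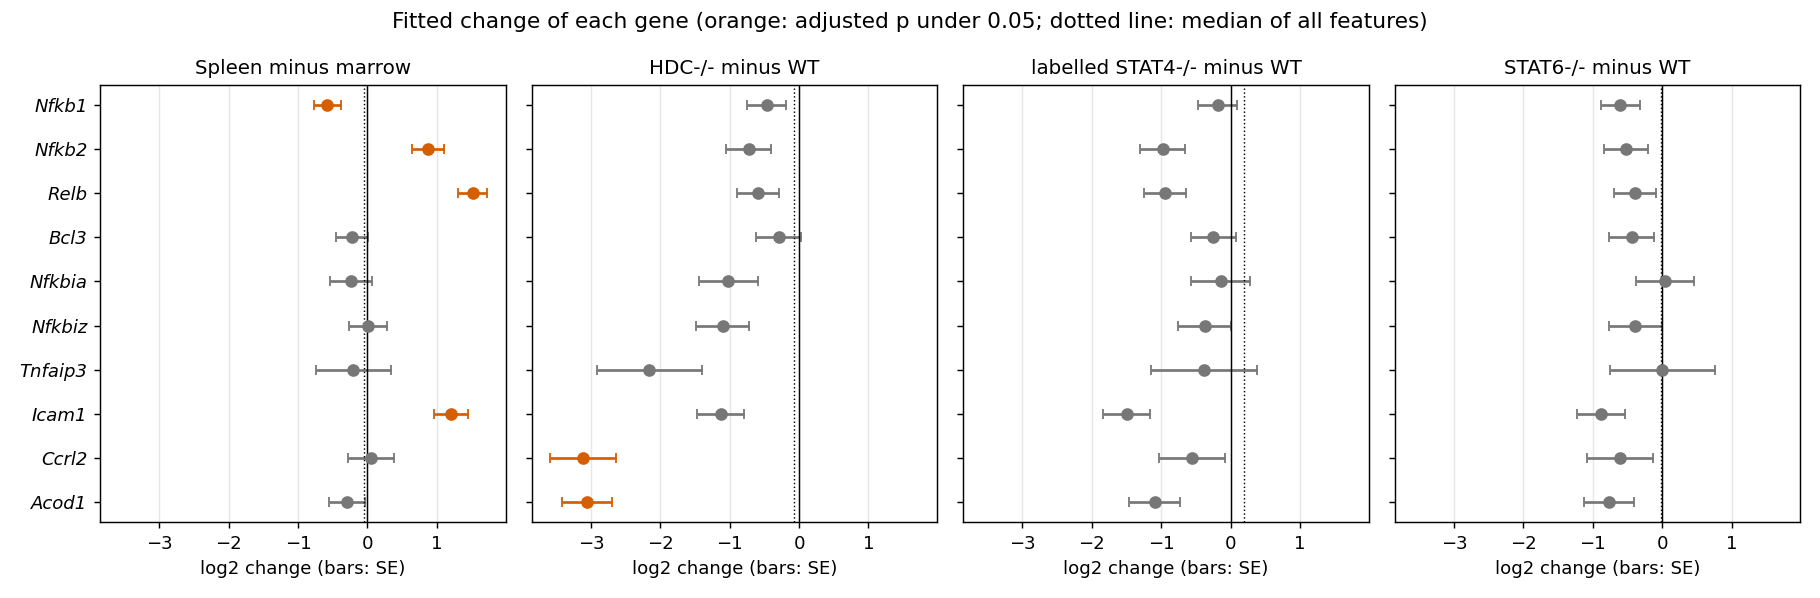
Fitted log2 change (points, bars SE) of each gene in 4 comparisons, with the tested samples minus those set against them in each panel title. Orange points had an adjusted p under 0.05 and the dotted line is the median of all features. Orange points are Relb, Nfkb2, Icam1 and Nfkb1 in spleen minus marrow, and Ccrl2 and Acod1 in HDC-/- minus WT.

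The second question is whether the loss of HDC goes with other levels of these genes. Acod1, the enzyme that makes itaconate from a citrate cycle intermediate, and Ccrl2 were lower in HDC-/- cells in both tissues and on both diets. Their signals were 8.30-fold and 8.65-fold lower. The other 8 members did not pass, and all 10 estimates were below 0, as they were with quantile normalization, median centring and normexp. The median change was -1.06 over the members and -0.07 over all features. The members' median was -0.52 without the 2 HDC-/- control arrays, -0.56 without the 4 arrays of low Y-linked signal and -0.67 without the 2 arrays near the other tissue, with all 10 below 0 each time. Of the 10 members 2 were called lower, where 0.153% of all features were called (44, of which 29 lower).

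Acod1 was at 1.95 (high-fat) and 2.07 (control) in HDC-/- spleen, against 4.34 and 5.41 in WT spleen. In marrow it was at 2.38 (high-fat) and 0.83 (control) in HDC-/- cells, against 4.65 and 5.05 in WT cells. The 4 HDC-/- arrays all lay below the 4 WT arrays, and below every other array of the series, whose lowest was 2.98. The change was -3.05 (SE 0.37, adjusted p = 0.0158). It was read from 1 probe on 10 spots per array, whose SD over spots was 0.04 to 0.14.

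Ccrl2 was at 2.78 (high-fat) and 2.08 (control) in HDC-/- spleen, against 5.09 and 5.60 in WT spleen. In HDC-/- marrow it was at 3.38 (high-fat) and 0.64 (control), against 5.18 and 5.46 in WT marrow. Here too the 4 HDC-/- arrays lay below all 12 others, the lowest of which was 3.93. The change was -3.11 (SE 0.48, adjusted p = 0.0429).

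Neither call held with each array left out in turn. With 1 array left out, Acod1 remained called in 10 of 16 cases (adjusted p 0.00762 to 0.134) and was lost without HDC-/- spleen control, HDC-/- spleen high-fat or any of the 4 WT arrays. Ccrl2 was called in 1 of 16, without HDC-/- marrow on high-fat diet, and lost in the other 15 (adjusted p up to 0.361). Without the 2 HDC-/- control arrays, Acod1 was at -2.49 (adjusted p = 0.0913) and Ccrl2 at -2.10 (adjusted p = 0.114), and no member was called. Without the 2 arrays near the other tissue, Acod1 was at -2.64 (adjusted p = 0.0584) and Ccrl2 at -2.47 (adjusted p = 0.11).

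Set against STAT6-/- arrays, which share their scans, HDC-/- arrays had Acod1 at -2.29 (SE 0.37, adjusted p = 0.143) and Ccrl2 at -2.51 (SE 0.48, adjusted p = 0.258), both lower in 4 of 4 pairs. No member was called by limma, while 4 had an unadjusted p under 0.05, as had 1850 of 28781 features, and 0.0104% of all features were called. Acod1 and Ccrl2 did not overlap between HDC-/- and STAT6-/- arrays, as held for 1.32% of features. Against WT, where 2.74% of features did not overlap, 4 members did not: Acod1, Ccrl2, Nfkb1 and Nfkbiz. For Nfkb1 the margin was narrow, with the highest HDC-/- value at 1.93 and the lowest WT value at 1.94. The second Nfkb1 probe did overlap, at -0.68 to 0.11 on HDC-/- arrays and -0.14 to 0.30 on WT arrays. The median change against STAT6-/- was -0.48 over the members and -0.09 over all features, and the members' median was -0.14 without the 2 HDC-/- control arrays, -0.10 without the 4 arrays of low Y-linked signal and -0.28 without the 2 arrays near the other tissue. Both comparisons share the HDC-/- arrays.

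Of the uncalled members, Tnfaip3 had the widest estimate against WT, -2.16 (SE 0.76, adjusted p = 0.334), and was -0.28 (adjusted p = 0.886) without the 2 HDC-/- control-diet arrays. Nfkbia was at -1.02 (SE 0.42, adjusted p = 0.415), Nfkbiz at -1.10 (SE 0.38, adjusted p = 0.330) and Icam1 at -1.13 (SE 0.34, adjusted p = 0.266). The subunits Nfkb1 (-0.46), Nfkb2 (-0.73) and Relb (-0.59) and the p50 partner Bcl3 (-0.29) had smaller estimates, with adjusted p from 0.446 to 0.794. No member's HDC-/- effect was called as differing between spleen and marrow, a contrast in which 16.2% of features were called, and 0 features once arrays were quantile normalized.

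In the same comparison, 2 of 41 other NF-kB targets were called, both lower: Sele, which encodes E-selectin (-3.67, SE 0.53, adjusted p = 0.038, above background on 13 arrays), and the chemokine gene Ccl4 (-2.57, SE 0.38, adjusted p = 0.0429). The median over the 41 was -0.80. Without the 2 HDC-/- control arrays neither was called (Sele -3.02, adjusted p = 0.151; Ccl4 -1.99, adjusted p = 0.178), and the median was -0.48. None of 24 immediate early genes, which respond to many stimuli within minutes, was called, with 1 positive estimate and a median of -1.18, or 2 and -0.63 without those 2 arrays. Atf3 was at -3.19 (adjusted p = 0.125) and Ier5 at -1.76 (adjusted p = 0.114). Of the 17 other subunits and inhibitors none was called, with Zc3h12a, which encodes the RNase Regnase-1, at -2.24 (adjusted p = 0.0983) and Rel, the c-Rel subunit, at -2.69 (adjusted p = 0.182). Of 33 kinases and adaptors none was called, with a median of -0.13, near that of all features. Of 18 receptors none was called, with Tlr2 at -1.80 (adjusted p = 0.0926).

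Nfkbia, Nfkbiz, Tnfaip3, Ccrl2 and Acod1 differed in how they behaved on the HDC-/- arrays of the 2 diets. Tnfaip3 was at 5.54 on the high-fat and 2.40 on the control array of HDC-/- spleen, and at 5.33 and 1.55 in marrow. On the other 12 arrays it lay between 4.97 and 6.27, so the high-fat HDC-/- arrays were inside that range and the control ones far below it. Nfkbia did the same, at 6.16 (high-fat) and 4.93 (control) in HDC-/- spleen and 6.26 and 4.25 in marrow, against 5.87 to 6.95 elsewhere. Nfkbiz was at 1.34 and 0.21 in HDC-/- spleen and 1.50 and -0.05 in marrow, against 0.32 to 2.05 elsewhere. Acod1 and Ccrl2 were below every other array on both diets. In HDC-/- marrow both were still higher on high-fat diet, Ccrl2 at 3.38 against 0.64 and Acod1 at 2.38 against 0.83. In HDC-/- spleen Ccrl2 was at 2.78 on high-fat and 2.08 on control diet, and Acod1 at 1.95 and 2.07.

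The estimated diet difference of these genes was larger in HDC-/- than in WT cells, but no member passed the test of that interaction. Of the HDC-/- arrays, those on control diet had low Y-linked signal and those on high-fat diet did not. A diet effect particular to HDC-/- cells cannot be told apart from that difference. This test was not fitted without the 4 arrays of low Y-linked signal. The interaction was 3.98 for Tnfaip3 (SE 0.49, adjusted p = 0.0983), 1.95 for Nfkbia (SE 0.48, adjusted p = 0.252), 2.12 for Ccrl2 (SE 0.58, adjusted p = 0.273), 1.45 for Acod1 (adjusted p = 0.360) and 1.37 for Nfkbiz (adjusted p = 0.368). All 10 members were positive, with a median of 1.19 against 0.07 over all features, and 0.00695% of features were called. Without the 2 arrays near the other tissue, 6 members were positive and 4 negative, with a median of 0.64, and Tnfaip3 was at 3.76 (adjusted p = 0.358). The 5 members at an unadjusted p under 0.05 are those just named, and 3511 features reached that level. Tnfaip3 passed with normexp background correction (4.01, adjusted p = 0.0106) and among features above background on all 16 arrays (3.98, adjusted p = 0.0314). With normexp 41 features were called in all.

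The 2 HDC-/- control-diet arrays stood apart in more than the members. The marrow one was the lowest of the 8 marrow arrays for 10 of 10 members, where it was lowest for 40.3% of all features. The spleen one was lowest for 4 of 10, Nfkbia, Nfkbiz, Tnfaip3 and Ccrl2, where it was lowest for 13.6% of features. The WT spleen control array was lowest of the 8 spleen arrays for 38.7% of features and for 0 members. The mean of 24 immediate early genes was 1.66 on the HDC-/- spleen control array, against 2.90 to 3.76 on other spleen arrays, and 1.08 on the marrow one, against 2.60 to 3.50. The mean of 41 other NF-kB targets was 0.81 in spleen, against 1.37 to 2.40, and 0.18 in marrow, against 1.14 to 1.70. That of 33 kinases and adaptors was 1.28 in spleen, inside the 1.06 to 1.48 of the others, and 0.72 in marrow, below their 1.05 to 1.26.

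Markers of cell types differed on the same arrays. The CD11b+ cell markers were lowest of their tissue on both, at 3.72 on the HDC-/- spleen control array, against 3.79 to 4.74 on other spleen arrays, and 4.04 on the marrow one, against 4.22 to 4.90. The 9 neutrophil markers averaged 4.15 on the HDC-/- spleen control array, against 4.84 to 5.96 on other spleen arrays, and 5.22 on the marrow one, against 5.69 to 6.12. Markers of pro-B and pre-B cells averaged 1.85 on the HDC-/- marrow control array, against -4.06 to -0.32 on other marrow arrays. On the spleen one they were inside the range (-3.31, others -4.08 to -2.70). Monocyte markers averaged 2.88 on the HDC-/- spleen control array, against 0.39 to 2.45, but were inside the range in marrow (1.53, others 1.24 to 1.66). Red pulp macrophage markers averaged 1.17 on the HDC-/- marrow control array, against -1.70 to -0.60, but were inside the range in spleen (2.18, others 0.64 to 2.63). Erythroid markers averaged -1.75 on the HDC-/- spleen control array, against 0.64 to 3.13. Dendritic cell, B cell and NK cell markers were highest of their tissue on both arrays, and T cell, plasma cell and erythroid markers on the marrow one. The part of these cell types and of the difference in Y-linked signal in the low levels of Tnfaip3, Nfkbia, Nfkbiz, Ccrl2 and Acod1 was not tested.

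**Figure D3:**
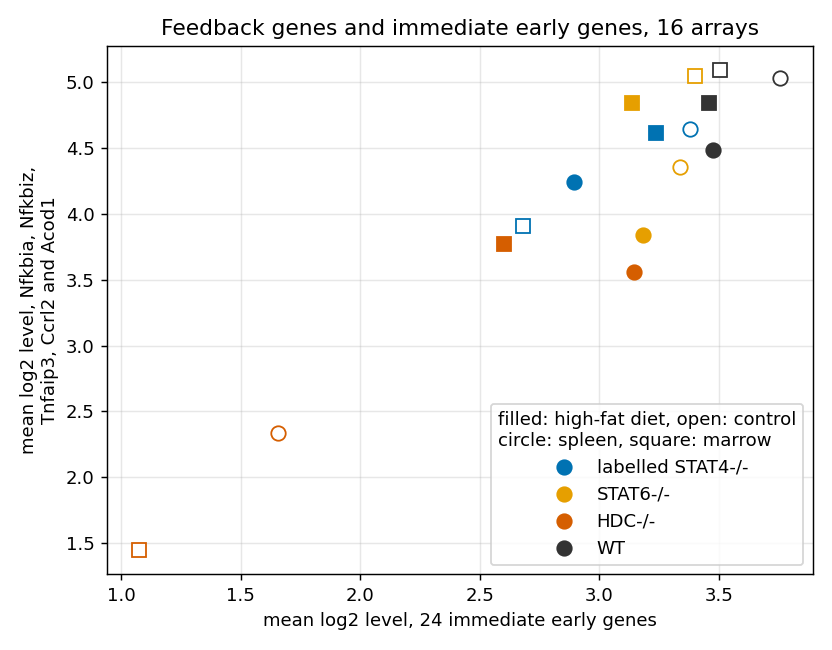
Mean log2 level of Nfkbia, Nfkbiz, Tnfaip3, Ccrl2 and Acod1 against that of 24 immediate early genes on each array. The 2 open HDC-/- marks lie far to the lower left, at 1.08 and 1.66 on the horizontal axis and 1.44 and 2.34 on the vertical one, and the other 14 arrays lie between 2.60 and 3.76 and between 3.56 and 5.09. The members averaged were grouped with these data known, so their low mean on these arrays is no separate result. Nfkb1, Nfkb2, Relb, Bcl3 and Icam1 are left out. On the HDC-/- spleen control array these lay inside the range of the other spleen arrays, and on the marrow one they were lowest.

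The third question is whether the arrays labelled STAT4-/- or STAT6-/- differed from WT. No member was called in either comparison (limma), where 0.0174% of features were called for the arrays labelled STAT4-/- and 0.0313% for STAT6-/-. Against WT, the arrays labelled STAT4-/- had all 10 members below 0, with a median of -0.47 where all features had a median of 0.20, so relative to that shift the members' median was -0.67. Without the 2 arrays near the other tissue, 9 members were negative and 1 positive, with a median of -0.41, and Icam1 was at -1.09 (adjusted p = 0.349). Icam1 had the lowest p, at -1.50 (SE 0.34, adjusted p = 0.311; -1.70 relative to the shift), followed by Relb (-0.94, adjusted p = 0.443), Nfkb2 (-0.98, adjusted p = 0.448) and Acod1 (-1.09, adjusted p = 0.452). These 4 had an unadjusted p under 0.05, as had 2838 features.

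Acod1 was at 3.54 (high-fat) and 3.84 (control) in spleen cells labelled STAT4-/-, and at 4.19 and 3.50 in marrow, all below the lowest WT array at 4.34. Nfkb2 was at -0.26 and 0.12 in spleen cells labelled STAT4-/- and at -0.08 and -0.80 in marrow, all below the lowest WT array at 0.17. These 2 members did not overlap, as held for 1.7% of features. Icam1 was at -2.85 (high-fat) and -0.96 (control) in spleen cells labelled STAT4-/-, against -0.01 and 0.53 in WT spleen, and overlapped with WT across tissues. The WT arrays share their scans with these.

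STAT6-/- arrays had 8 of 10 members below WT, with a median of -0.48 against -0.01 over all features. With quantile normalization or median centring all 10 were below 0. Icam1 again had the lowest p, at -0.88 (SE 0.34, adjusted p = 0.631), and was the member with an unadjusted p under 0.05, as had 1973 features. Nfkbia (0.04, SE 0.42) and Tnfaip3 (0.00, SE 0.76) were near 0. Nfkb1 had 1 low value, 0.55, in STAT6-/- spleen on control diet, where the other spleen arrays lay between 1.55 and 2.12. The second probe of Nfkb1 gave -0.49 on that array, inside its range of -0.67 to 0.11 over the other spleen arrays. No receptor, kinase, inhibitor, target or immediate early gene of the lists was called in either comparison. No member's STAT6-/- effect was called as differing between spleen and marrow. In that contrast 7.55% of features were called, and 0 features once arrays were quantile normalized. Its estimates were negative for 9 members and positive for 1, with a median of -0.73 against 0.44 over all features. With quantile normalization all 10 were negative. Both sets of arrays were compared with the same WT arrays.

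The last question is what 3 months of high-fat diet did to these genes. No member and no feature was called by limma in spleen, in marrow or over both tissues (0% each), while 1274, 1741 and 3582 features had an unadjusted p under 0.05. No member reached that level. No member separated the 4 high-fat from the 4 control arrays of a tissue, as 0.782% of features did in spleen and 2.48% in marrow. The median change of all features was 0.14 in spleen and 0.11 in marrow, so values relative to it are lower by that much. Members had a median of -0.16 in spleen and 0.33 in marrow, or -0.30 and 0.22 relative to all features. The marrow median was -0.08 (4 members positive, 6 negative) without the 2 arrays near the other tissue, and the same without the 2 HDC-/- control arrays. It was -0.21 (1 positive, 9 negative) without the 4 arrays of low Y-linked signal, and the same with the WT and STAT6-/- arrays alone. The spleen median was -0.38 without the 2 HDC-/- control arrays.

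In spleen, Acod1 was the member lower on high-fat diet in 4 of 4 genotypes, by 0.30 in cells labelled STAT4-/-, 0.79 in STAT6-/-, 0.12 in HDC-/- and 1.07 in WT cells. Its fitted change was -0.57 (SE 0.37, adjusted p = 0.779 by limma) and was not called. That SE pools the residual spread of both tissues and is not the spread of these 4 pairs. Icam1 was at -0.66 (SE 0.34, adjusted p = 0.779), with -1.89 in the pair labelled STAT4-/- against -0.40 in HDC-/-, 0.18 in STAT6-/- and -0.55 in WT pairs. In marrow, Nfkbiz was at 0.80 (SE 0.38, adjusted p = 0.697), from 1.72 in the pair labelled STAT4-/- and 1.55 in the HDC-/- pair, against -0.12 in STAT6-/- and 0.06 in WT. Ccrl2 was also at 0.80 (SE 0.48) and Tnfaip3 at 0.91 (SE 0.76), both led by the HDC-/- pair. In the pairs labelled STAT4-/- or HDC-/-, of either tissue, only the control array had low Y-linked signal. Diet cannot be told apart from that difference in those pairs. Under the STAT4-/- label, Stat4 and Stat6 also differed between the diets, as given above.

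In WT cells alone, where no test was possible within a tissue, 9 of 10 members were lower on high-fat diet in spleen and Nfkb2 differed by 0.00. In marrow 9 were lower and Nfkbiz was higher by 0.06. The share of all features lower in these WT pairs is not given here, nor are the pairs under other scalings. Whether the members moved apart from features in general was therefore not tested. The WT spleen control array was the lowest spleen array for 38.7% of features and for 0 members. Tnfaip3 was at 5.26 on high-fat and 5.97 on control diet in WT spleen, and Ccrl2 at 5.09 and 5.60. Acod1 was at 4.34 on high-fat and 5.41 on control diet in WT spleen, and at 4.65 and 5.05 in WT marrow. Nfkbia differed by -0.35 in WT spleen and -0.30 in WT marrow. The tissues' diet effects did not differ for any member by limma, in a contrast with 0% of features called.

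**Figure D4:**
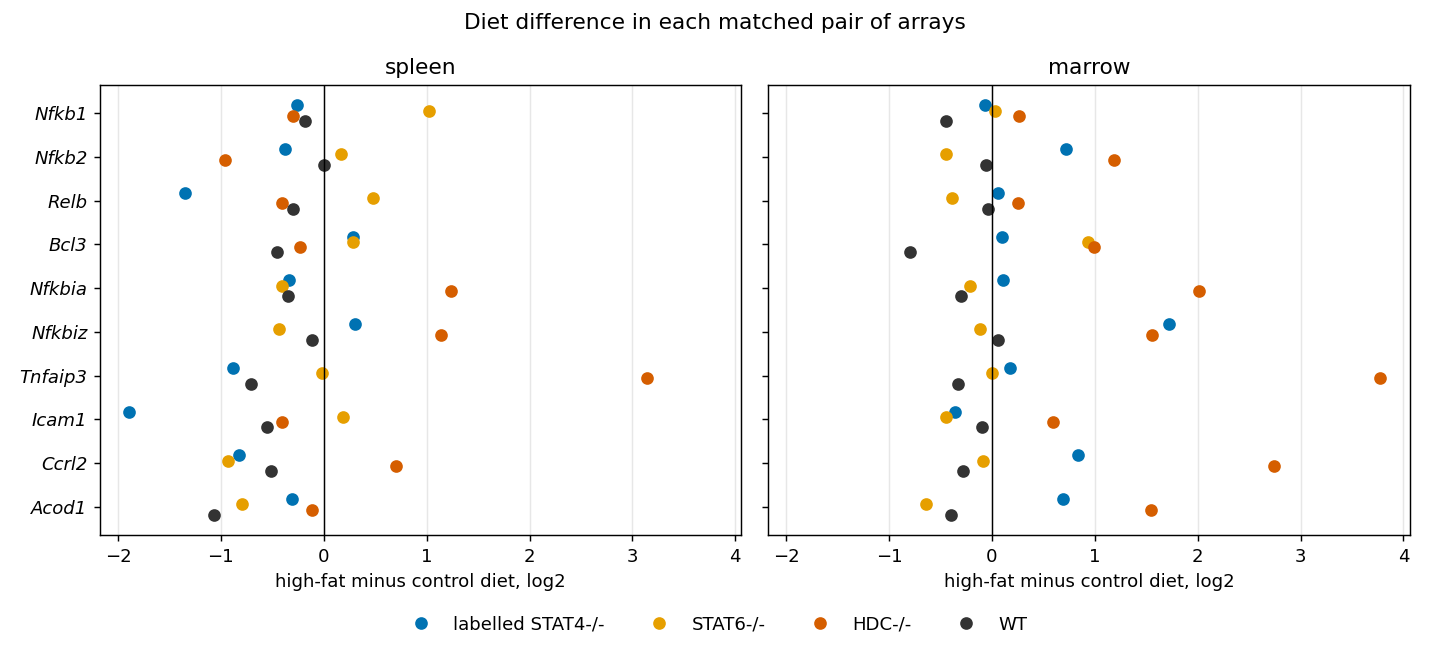
High-fat minus control diet, in log2, for each gene in each genotype (1 pair of arrays per point), in spleen and in marrow. The HDC-/- points of Tnfaip3 (3.14 in spleen and 3.78 in marrow) lie far from the other genotypes, and the WT points lie at or below 0.06 in both tissues.

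Most members fell into 2 loose groups by how they varied within tissues over the 16 arrays, given as a description, since the arrays share genotypes, diets and the 2 low HDC-/- arrays. Nfkbia and Tnfaip3 correlated at r = 0.96, Ccrl2 and Acod1 at 0.95, and Tnfaip3 and Ccrl2 at 0.88. Relb and Icam1 correlated at 0.96, Nfkb2 and Relb at 0.82 and Nfkb2 and Icam1 at 0.82. Between Nfkbia, Nfkbiz, Tnfaip3, Ccrl2 and Acod1 on one side and Relb, Icam1 and Nfkb2 on the other, values ran from 0.13 (Relb with Nfkbiz) to 0.56 (Nfkb2 with Acod1). Nfkb1 and Bcl3 belonged to neither group and correlated with each other at 0.63. Each member against the mean of the others over all arrays gave 0.87 for Ccrl2 and 0.85 for Acod1 at the top, and 0.22 for Nfkb1 and 0.31 for Relb at the bottom.

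Among 12799 other genes, those most like the members' mean over the 16 arrays were Atf3 (r = 0.94), Ccl4 (0.94), Nfkbib (0.93), Rnf113a2 (0.93) and Tgif1 (0.93). Within tissues they were Csrnp1 (0.96), Zc3h12a (0.95), Rnf19b (0.95), 2610206C17Rik (0.94) and Mgat4a (0.94). Atf3 is an immediate early gene, Nfkbib encodes IkB-beta and Zc3h12a an RNase that degrades inflammatory transcripts. These likenesses also share the 2 low HDC-/- arrays.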

How the data were processed

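Cy3 signal was measured on 16 one-colour Agilent arrays, 1 per combination, grouped by the labels. The deposited files hold intensity values that the authors made with Agilent Feature Extraction 11.0.1.1, per the file headers: background-subtracted and spatially corrected, not scaled between arrays. Spot flags, which the authors deposited beside the intensity, were also used. Signals were put on the log2 scale, each array's 75th percentile was taken off, and spots of a probe were averaged. Of 39429 probes, 27242 (69.1%) were named through RefSeq accessions; 305 marked probes were left out, apart from Hdc and the Acod1 spots, of which 7 marked readings were dropped. A gene was read from its brightest probe if 2 or more arrays had it well above background.

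limma 3.58.1 in R 4.3.3 fitted a mean per genotype and tissue and a diet term per tissue (6 residual degrees of freedom), and for diet by genotype all pairwise terms (3 degrees). Tests were two-sided, with Benjamini-Hochberg adjustment over 28781 features. The fits were also run on simulated independent noise with added changes. That simulation held no scan effects and no arrays that stand apart, so it does not test how the fits handle these. The number of arrays limits the precision. The members, the gene lists and the named-gene rule (all members, and per list the called genes of 1 direction in every pair, at most 4 a side, or else the 2 lowest p) were chosen with earlier results of these data known. Alternatives of scaling, filter, probe, model and arrays were run.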

Additional observations from a re-analysis of the deposited data

Results flagged for a closer look

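Of 60 sets of 4 or 8 arrays examined (each member by tissue, or by tissue and diet), 9 held an array far from the others by Dixon's test, which chance alone gives in a share of about 0.05 of sets. Of these, 6 of the 9 were on HDC-/- control-diet arrays. Nfkbia was at 4.93 on the HDC-/- spleen control array, where the nearest of the 8 spleen arrays was 5.87, and at 4.25 on the HDC-/- marrow control array, where the nearest was 6.14. Tnfaip3 was at 2.40 on the HDC-/- spleen control array, far from the 8 spleen arrays (nearest 4.97) and from the 4 control-diet ones (nearest 5.51). It was at 1.55 on the HDC-/- marrow control array (nearest 5.33). Ccrl2 was at 0.64 on that marrow array (nearest 3.38), and at 3.38 on the HDC-/- marrow high-fat array among the 4 high-fat marrow arrays (nearest 4.97). Nfkb1 was at 0.55 on the STAT6-/- spleen control array (nearest 1.55), a value that its second probe did not share. It was at 1.94 on the WT spleen high-fat array, above the other 3 high-fat spleen arrays (nearest 1.58). The second probe did not share that either, at -0.14 on that array and 0 on the HDC-/- spleen high-fat array. No difference between the effects in the 2 tissues passed the test for any member.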

How the results depend on the processing

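Of 150 pairs of member and comparison, 6 were called, 3 were called only under some alternative, and 141 under none, with 86 of the uncalled pairs of either sign across settings. The members called between tissues numbered 4, against 1 without the 4 arrays of low Y-linked signal, 2 without the 2 HDC-/- control arrays, and 2 to 4 with 1 array left out. Those called for HDC-/- against WT numbered 2, against 0 without the STAT4-/- labelled arrays, 0 without the 2 arrays near the other tissue, 0 without the 4 arrays of low Y-linked signal, 0 without the 2 HDC-/- control arrays, and 0 to 2 with 1 array left out. Against STAT6-/- they numbered 0, and 0 to 2 with 1 array left out; both came without HDC-/- marrow on high-fat diet. Diet by HDC-/- called 1 member with normexp and 1 among features above background on all 16 arrays. Fewer arrays leave fewer residual degrees of freedom; otherwise the cause was not tested. Features called moved by more than 1.5 times: 9124 between tissues (3710 to 11083), 44 for HDC-/- against WT (4 to 237), 3 for HDC-/- against STAT6-/- (2 to 13), 5 for the arrays labelled STAT4-/- against WT (2 to 25), 9 for STAT6-/- (3 to 19), 2172 and 4667 for the STAT6-/- and HDC-/- effects between tissues (0 to 3046 and 0 to 5905), 0 for diet by labelled STAT4-/- (0 to 4) and 2 for diet by HDC-/- (0 to 41). No called result changed sign.

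The fits without the HDC-/- control arrays, the additive model with scan as a random block, and the counts of the pathway lists without some arrays, were chosen after seeing the data. The same holds for the joint mean of Nfkbia, Nfkbiz, Tnfaip3, Ccrl2 and Acod1. Scan as a random block in the main model was not run, because scans lie within its genotype and tissue means. Each combination has 1 array and no replicate number to pair by, so arrays matched for genotype, tissue or diet were set against each other only through the terms of the models, and no fit with each matched pair as a block was run. Arrays without replicate pools cannot show how much 2 pools of 1 combination differ.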
